A study of Mus musculus with 23 samples.

Results

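The narrow pileups described here were the merged regions of crosslinked RNA fragments that spanned 80 nt or less on the mouse genome. Unspliced alignments of 10 CLIP libraries, each position taken once per library, were joined on 1 strand wherever the gap between them was 50 nt or less. A pileup was kept if it was at most 80 nt wide, held at least 10 alignments from at least 3 libraries, and lay outside the mitochondrial genome and the separate ribosomal sequence. This gave 232 narrow regions among 2357 regions of any width that met the same minimum, and among 203521 merged regions in all. The regions were chosen by measured values, namely width, number of alignments and number of libraries, which are therefore given only as a description.

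Upf1 is an RNA helicase that binds RNA widely and is needed for nonsense-mediated decay, the pathway that degrades mRNAs whose translation stops too early. In CLIP, ultraviolet light joins a protein to the RNA it touches, the complex is precipitated with an antibody, and the short RNA left on the protein is sequenced, so a pileup of alignments marks RNA that came down in the precipitate. Cycloheximide stops ribosomes on mRNA, which blocks this decay and, by background knowledge, changes where Upf1 is found along transcripts. Reads whose 5′ ends fall on the same base can come from a fixed cut in the RNA or from copies of 1 molecule, whereas overlapping fragments with scattered ends come from separate breaks.

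All cells were v6.5 mouse embryonic stem cells grown on feeder cells in medium with LIF, pre-plated to remove feeders and plated without them a day before irradiation at 254 nm with 400 mJ/cm2. The precipitates were made with rabbit anti-Upf1 or with rabbit IgG, the control antibody. The 4 groups were Upf1 after cycloheximide (100 µg/ml for 2 hours; libraries A1 and A2), Upf1 untreated (A1, A2 and I), IgG after the same cycloheximide treatment (A1 and A2) and IgG untreated (A1, A2 and I). Nothing in the labels ties the libraries of a group to separate cultures, so each p-value reflects only library-to-library spread, which may be technical. The series' mRNA-seq and ribosome footprint data were not used, and the defining genes of the cell type were not checked, because the alignment lists carry no gene names.

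The libraries differed in depth and in the longest alignment they held. Distinct unspliced alignments numbered 6798 to 96521 per library. The longest unspliced alignment typical of a library was 38 nt in 7 libraries and 34 nt in the other 3, namely A1 and I of Upf1 untreated and I of IgG untreated. All 3 libraries with the 34 nt limit were untreated, so this limit and the lack of cycloheximide cannot be told apart in them. Upf1 untreated A1 and I together held 51.5% of all unspliced alignments. Many positions in the IgG libraries after cycloheximide, and in IgG untreated A2, carried the same start, end and 2 letters of the alignment name as in another library. The letters were read as the random adapter nucleotides, which no file header states, and whether reads passed between libraries cannot be told from the files. Alignments that match in this way are called shared molecules here, and in the narrow regions they made up 80.6% and 88.1% of alignments in IgG cycloheximide A1 and A2, 95.9% in IgG untreated A2, and 44.2% and 56.0% in Upf1 cycloheximide A1 and A2. They made up 45.2% in Upf1 untreated A2 and between 9.24% and 13.8% in the other 4 libraries.

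The narrow regions were thin pileups spread over the genome. They held 3355 alignments, 0.934% of all unspliced alignments, with 10 to 51 per region and a median of 12. Widths ran from 30 to 80 nt with a median of 54.5 nt, and the median region had alignments in 6 libraries. 53 regions had exactly 10 alignments, and 98 further pileups of this width stopped at 9 alignments in 3 or more libraries. At the width limit, 22 narrow regions were 76 to 80 nt wide and 26 regions outside it were 81 to 85 nt wide. The plus strand carried 112 and the minus strand 120. They lay on 20 chromosomes, with 22 each on chromosomes 11 and 17, and 8 on X.

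Narrow regions stood more alone than wider ones. Another region that met the minimum lay within 1000 nt on the same strand for 20.3% of narrow regions, against 48.4% of the 744 regions of 81 to 200 nt and 55.2% of the 1342 regions over 200 nt. The nearest merged region of any depth was a median of 307 nt away for narrow regions, against 88 and 79 nt for the other width classes. Part of this follows from the rule, since pileups with close neighbours merge into wider regions. 4 groups of 2 narrow regions lay within 1000 nt of each other. The group with the most alignments was on the minus strand of chromosome 17, chr17:45707647-45708559 (all coordinates are mm9), with 40 alignments in Upf1 cycloheximide libraries, 1 in Upf1 untreated, 20 in IgG cycloheximide and 3 in IgG untreated. The group at chr7:118220207-118221211 on the minus strand had 15 and 15 alignments in the Upf1 cycloheximide and Upf1 untreated libraries, and 9 and 3 in the IgG cycloheximide and IgG untreated libraries. The remaining groups, chr13:113368376-113368542 and chr9:56071382-56071612 on the minus strand, had no alignment in IgG cycloheximide libraries and 32 and 26 alignments in all.

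Most narrow regions were found with both antibodies. 223 had alignments in Upf1 and IgG libraries, 9 in Upf1 libraries alone (3.88%, beside 1.91% of all 2357 regions) and none in IgG libraries alone. All 4 groups were represented in 83 regions (35.8%, beside 42.3% of all regions). By group, 201 narrow regions (86.6%) had an alignment in the Upf1 cycloheximide libraries, 206 (88.8%) in Upf1 untreated, 142 (61.2%) in IgG cycloheximide and 189 (81.5%) in IgG untreated. The same shares over all regions were 66.5%, 97.8%, 59.4% and 92.2%.

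The share of each library that fell in narrow regions was 1.65% and 1.41% in Upf1 cycloheximide A1 and A2, against 0.553%, 1.44% and 0.563% in Upf1 untreated A1, A2 and I. Upf1 untreated A2 lay between the 2 cycloheximide libraries, and the low values were those of the libraries with the 34 nt limit. In the IgG precipitates it was 2.04% and 1.61% in cycloheximide A1 and A2, against 2.63%, 1.21% and 0.563% in untreated A1, A2 and I. The Upf1 libraries averaged 1.53% ± 0.171 with cycloheximide (SD, n = 2) and 0.851% ± 0.506 untreated (SD, n = 3). IgG libraries averaged 1.83% ± 0.309 with cycloheximide (SD, n = 2) and 1.47% ± 1.06 untreated (SD, n = 3). Upf1 and IgG libraries overlapped throughout, and the highest share of all was in an IgG library. Among libraries with the 38 nt limit alone, the Upf1 values of 1.65% and 1.41% with cycloheximide enclosed the untreated 1.44%. These shares have 95% Wilson intervals that cover counting error only, such as 1.29% to 1.54% for Upf1 cycloheximide A2 and 2.34% to 2.96% for IgG untreated A1.

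**Figure D1:**
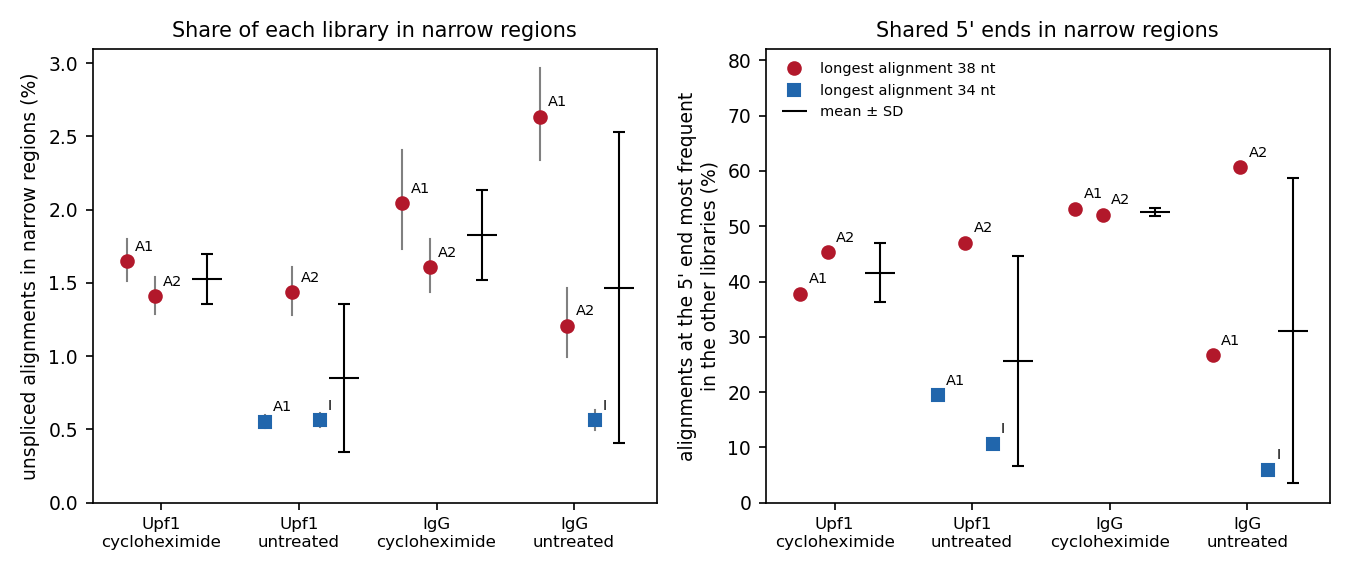
Left, the share of each library's unspliced alignments that lay in the 232 narrow regions (percent; grey lines are 95% Wilson intervals). Right, the share of alignments in narrow regions whose 5′ end was the one most frequent in the other 9 libraries (percent). Points are libraries by group, shaped by their longest alignment, and black marks are the group mean ± SD; the libraries limited to 34 nt are the lowest on both axes.

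The 5′ ends of alignments in narrow regions were often shared. The most frequent 5′ end held a median of 36.4% of a region's alignments, with the middle 50% of regions between 23.7% and 48.0%. The same median was 26.2% in regions of 81 to 200 nt and 14.3% in wider regions, a difference that narrow width by itself forces in part. At least 50% of the alignments began on 1 base in 58 narrow regions, against 46 regions of 81 to 200 nt (6.18%) and 5 wider regions (0.373%). This end was seen in at least 3 libraries in 193 of the 232 regions (83.2%), and with both antibodies in 191 (82.3%). These counts were not taken for the wider regions. Shared molecules can add to both counts. They made up 80.6% and 88.1% of narrow-region alignments in IgG cycloheximide A1 and A2, and 95.9% in IgG untreated A2. Their part in the counts was not tested. The length of a fragment can be read where its alignment stops short of the read limit. In 146 regions at least 2 such alignments began on the most frequent base, and in 100 of these (68.5%) they had at least 2 different lengths, that is a common start and different ends. Each position was counted once per library, so such alignments from 1 library must differ in length. The counting rule therefore fixes part of this share.

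Single regions ran from a full stack to a broad scatter. At chr17:56231458-56231495 on the minus strand, 16 of 17 alignments began on the region's first base, in 7 libraries. Of these, 7 came from Upf1 cycloheximide, 5 from Upf1 untreated, none from IgG cycloheximide and 4 from IgG untreated libraries. At chr9:52913475-52913512 on the minus strand, 16 of 18 alignments began on the first base and the other 2 began 1 nt downstream, in 4 Upf1 libraries and no IgG library. The 14 alignments there that were shorter than their library's limit ended at 8 different bases. At chr11:97554587-97554624 on the minus strand all 10 alignments began on 1 base, 7 of them short of the limit and ending at 7 different bases. In both regions, short alignments with the same start in 1 library had to end at different bases by the counting rule. In the 3 regions with the next highest shares among those with at least 15 alignments, all on the minus strand, 12 of 16 alignments at chr2:144084807-144084865, 14 of 19 at chr1:164640773-164640832 and 12 of 17 at chr8:44265154-44265223 began on 1 base. Opposite to these, the 15 alignments of chr1:88427175-88427225 on the plus strand began at 12 different bases in its first 18 nt, with no more than 2 on any base. It held 14 alignments from untreated Upf1 libraries A1 and I, which have the 34 nt limit, 1 from IgG untreated I and none from cycloheximide libraries. The 4 other regions with the lowest shares among those with at least 15 alignments were also scattered. They were chr9:3260361-3260438, chr17:39984498-39984565, chr3:129213700-129213775 and chr11:33052547-33052605, whose 27, 25, 21 and 26 alignments began at 16, 18, 13 and 17 bases.

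Agreement between libraries on the 5′ end split by the read limit. Each alignment was set against the 5′ end most frequent in the other 9 libraries, where a single base led with at least 2 alignments. In the 38 nt libraries 43.6% of 1652 alignments in narrow regions began on exactly that base, against 13.1% of 943 alignments in the 34 nt libraries. Within 2 nt of it the shares were 57.7% and 36.8%, and within 8 nt 76.4% and 65.0%, so the 34 nt libraries had counted ends spread over nearby bases. Each position was counted once per library, so reads at the limit with the same 5′ end count as 1 alignment. In narrow regions 78.5%, 85.1% and 83.0% of alignments reached the limit in Upf1 untreated A1 and I and IgG untreated I. In the 38 nt libraries 28.8% to 71.7% did. The part of this in the split was not tested. By library, the exact match was 37.8% and 45.3% in Upf1 cycloheximide A1 and A2, against 19.4%, 47.0% and 10.7% in Upf1 untreated A1, A2 and I. It was 53.2% and 52.0% in IgG cycloheximide A1 and A2, against 26.7%, 60.7% and 5.97% in IgG untreated A1, A2 and I. Cycloheximide and untreated libraries overlapped in both precipitates, and Upf1 untreated A2, which has the 38 nt limit, was above both Upf1 cycloheximide libraries. The split by read limit was noticed after the values were seen.

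Molecules found in more than 1 library took part in this agreement. With alignments whose molecule was seen in 1 library alone, the exact match fell to 29.5% of 731 alignments in 38 nt libraries and to 10.3% of 852 in 34 nt libraries. The same measure was 19.3% and 5.21% in regions of 81 to 200 nt, and 12.4% and 1.68% in wider regions. Between pairs of libraries, the share of alignments whose 5′ end was also used in the other library had a median of 53.0% over the 42 ordered pairs of 38 nt libraries, with a range of 17.0% to 86.6%. It had a median of 16.1% over the 6 ordered pairs of 34 nt libraries. The highest value, 86.6%, was for IgG cycloheximide A1 against IgG cycloheximide A2, where most molecules were shared. The 3′ end can be read only from alignments shorter than the limit. In the 135 narrow regions with at least 5 of these, the most frequent 3′ end held a median of 42.9% of them, the same as in regions of 81 to 200 nt.

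**Figure D2:**
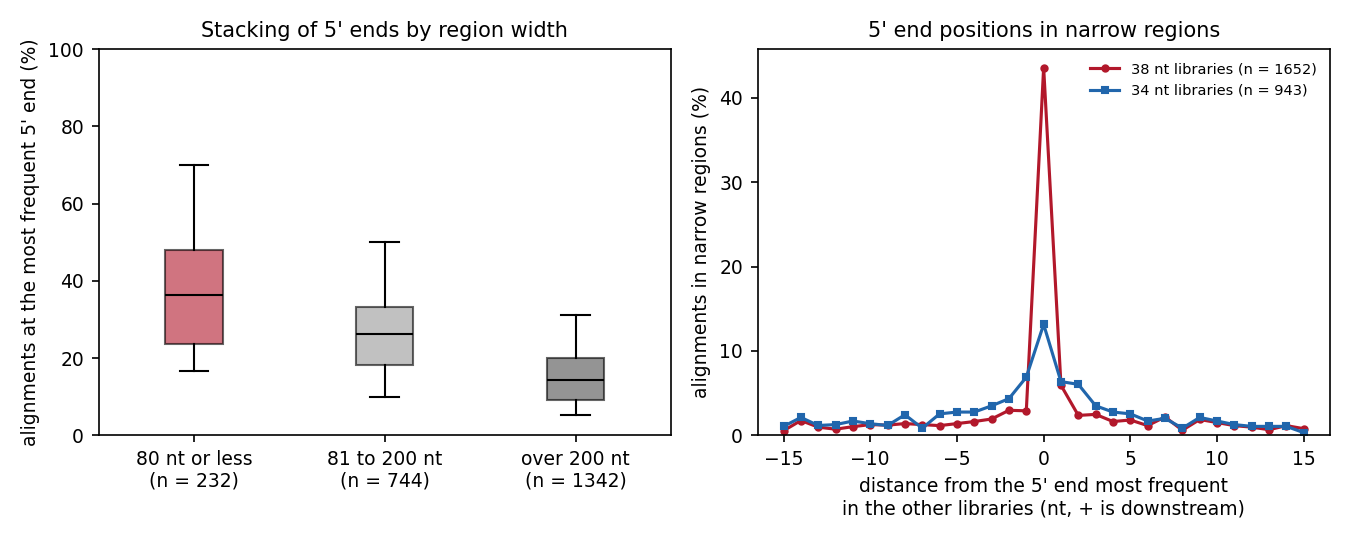
Left, percent of a region's alignments at its most frequent 5′ end by region width (line, median; box, middle 50%; whiskers, percentiles 5 to 95), with medians of 36.4%, 26.2% and 14.3%. Right, distance in nt of 5′ ends in narrow regions from the end most frequent in the other 9 libraries, in percent of alignments, for libraries with the 38 nt and the 34 nt limit; the peak at 0 is 43.6% in the first and 13.1% in the second.

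Short fragments were scarcer in narrow regions than in the whole library in all cycloheximide and all Upf1 untreated libraries, and in IgG untreated A1. Alignments shorter than 30 nt made up 33.5% and 36.9% of those in narrow regions in Upf1 cycloheximide A1 and A2, where they made up 50.4% and 52.3% of all unspliced alignments. In IgG cycloheximide A1 and A2 they were 41.0% and 41.6% in narrow regions and 52.6% and 48.4% of all. In the Upf1 untreated libraries A1, A2 and I they were 11.6%, 17.2% and 8.43% in narrow regions and 15.1%, 31.4% and 12.2% of all. IgG untreated A1, A2 and I had 5.58%, 39.8% and 12.8% in narrow regions and 9.98%, 39.3% and 12.1% of all, so the order turned round in A2 and I. Regions that met the minimum but were wider had 44.5% and 44.6% such fragments in Upf1 cycloheximide A1 and A2, between the narrow regions and the whole library. Their share also lay between in IgG cycloheximide A1 and A2, Upf1 untreated A2 and I and IgG untreated A1. It was above both in Upf1 untreated A1, at 17.0%, and below both in IgG untreated A2 and I, at 34.4% and 10.4%. Mean lengths in narrow regions were 32.1 ± 0.419 nt in Upf1 cycloheximide (SD, n = 2) and 33.3 ± 0.572 nt in Upf1 untreated libraries (SD, n = 3). Reads that reached the limit may come from longer RNA, so lengths cannot be compared between 34 and 38 nt libraries. The part of the limit in the narrow width itself was not tested.

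**Figure D3:**
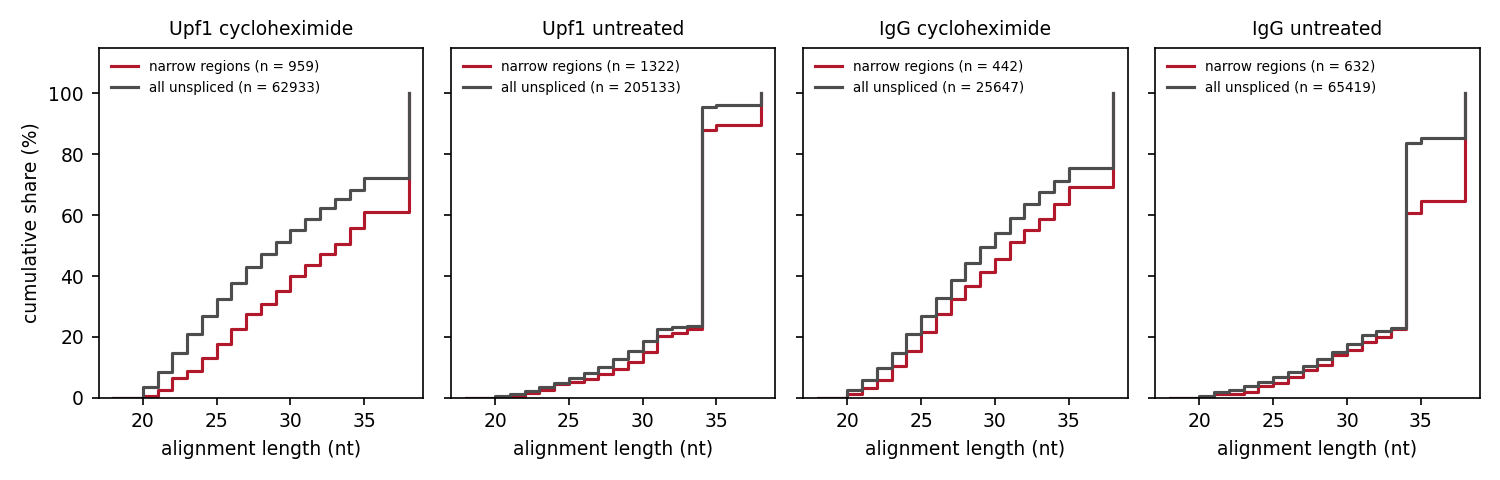
Cumulative share (percent) of alignments by length in nt, for alignments in narrow regions and for all unspliced alignments, in the 4 groups. The step at the right of each curve holds the alignments that reached the read limit of 34 or 38 nt; in Upf1 cycloheximide libraries the curve of narrow regions lies under that of the whole.

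The comparison of Upf1 with IgG asked which regions were found more with the specific antibody. With limma-voom and Benjamini-Hochberg adjustment over all 2357 regions, none of the 232 narrow regions passed an adjusted p of 0.05 in either direction, and neither did any other region (background 0% each way). Before adjustment, 15 narrow regions were higher and 10 lower at p under 0.05, beside 1.78% higher and 1.02% lower among all regions tested. The limma trend fit also called none. The median log2 difference was 0.00 in narrow regions and 0.09 in all regions; scaling by library totals in place of TMM (trimmed mean of M values) moved both medians below 0, to -1.05 and -0.90, so no direction is given for the narrow regions as a set.

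The regions with the lowest p were deep Upf1 pileups with few IgG alignments. chr4:82975201-82975277 on the plus strand had 7 and 7 alignments in the Upf1 cycloheximide libraries A1 and A2 and 6, 6 and 12 in Upf1 untreated A1, A2 and I, against 0 and 0 in IgG cycloheximide and 2, 0 and 1 in IgG untreated libraries. All 5 Upf1 libraries had more alignments there than any IgG library. Per 100000 unspliced alignments the groups overlapped, with 6.22 in Upf1 untreated A1, the lowest Upf1 library, against 19.6 in IgG untreated A1, the highest IgG library. Per unspliced alignment it was 4.30-fold higher in Upf1 libraries (95% exact interval of counting error 1.37 to 21.8), and its log2 difference was 2.54 ± 0.74 (SE; limma-voom adjusted p = 0.9997). chr4:119198095-119198145 on the minus strand had 7, 6, 8, 6 and 9 alignments in the Upf1 libraries in the same order, against 0, 0, 2, 0 and 2 in IgG libraries (log2 difference 2.47 ± 0.75, SE; limma-voom adjusted p = 0.9997). chr9:52913475-52913512, the region with the stacked end above, had 6, 5, 1, 6 and 0 against none in any IgG library, at least 2.04-fold higher against 3 alignments over the IgG group. Without IgG untreated A1, the first 2 of these 3 regions passed the threshold.

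In the other direction chr11:83310880-83310918 on the plus strand had 1 alignment over the 5 Upf1 libraries, in cycloheximide A2, against 12 over the IgG libraries, 10 of them in untreated A1 (log2 difference -1.92 ± 0.63, SE; limma-voom adjusted p = 0.9997). The log2 differences of the next 2 regions, on chromosomes 18 and 14, were -1.53 and -1.39 with the same adjusted p. The narrow region with the most alignments, chrX:40607296-40607350 on the plus strand, had 12 and 12 in Upf1 cycloheximide and 2, 14 and 6 in Upf1 untreated libraries, against 0 and 1 in IgG cycloheximide and 2, 0 and 2 in IgG untreated libraries. Its 51 alignments began at 18 different bases, at most 9 on 1 of them, while its 39 alignments short of the limit ended at 7 bases, with 13 each on 2 neighbouring ones. In this region the 3′ ends were thus the more narrowly placed.

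The other deep narrow regions differed in which precipitate filled them. chr16:78777938-78777985 on the minus strand had 4 and 3 alignments in Upf1 cycloheximide and 7, 3 and 9 in Upf1 untreated libraries, against 0 and 0 in IgG cycloheximide and 3, 0 and 1 in IgG untreated libraries. chr5:67442481-67442536 on the plus strand had 1, 3, 5, 2 and 15 in the Upf1 libraries in that order, against 0, 0, 4, 0 and 0 in the IgG libraries. chrX:84483693-84483762 on the plus strand was found at least as much with IgG, with 1, 0, 2, 4 and 4 in Upf1 libraries against 0, 3, 8, 1 and 7 in IgG libraries. chr2:140202340-140202391 on the plus strand had 5, 2, 2, 2 and 9 against 0, 1, 6, 0 and 1. None of these 4 passed the limma-voom threshold in any of the comparisons, and IgG untreated A1 had the most IgG alignments per unspliced alignment in each of them.

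Cycloheximide was followed by more alignments in a set of narrow regions in the Upf1 libraries. With the same test, 26 of the 232 narrow regions (11.2%) were higher and none lower, beside 2.38% higher and 0.339% lower among all 2357 regions. Of the 26, 9 had no alignment in any untreated library. All 26 together held 4, 1 and 0 in Upf1 untreated A1, A2 and I, and 0, 16 and 6 in IgG untreated A1, A2 and I. They thus met the minimum mostly through the libraries in which they were high, so their count and share are given as a description. Regions of 81 to 200 nt had 27 of 744 higher (3.63%) and none lower, and wider regions had 3 of 1342 higher (0.224%) and 8 lower. The median log2 change was 1.06 in narrow regions, -0.13 and -0.97 in the other classes and -0.65 in all regions. Taken from pooled rates, with regions empty in 1 group at the bound that 3 alignments set, the medians were 1.12, 0.12, -0.73 and -0.30. In the same order, 31, 238, 510 and 789 regions had no cycloheximide Upf1 alignment. The bound places these too high, and those with few untreated alignments enter as a rise. It places the 26, 26, 1 and 53 regions without an untreated Upf1 alignment too low. These medians are therefore no independent check. Scaling by library totals gave 0.76 in narrow and -0.91 in all regions. At an unadjusted p under 0.05, 72 narrow regions were higher and 4 lower, beside 8.1% and 8.32% of all regions. A fall was hard to detect at this depth: a region with 12 alignments, all in untreated Upf1 libraries, would be at least 1.23-fold lower, while 12 in the cycloheximide libraries alone would be at least 13.0-fold higher.

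**Figure D4:**
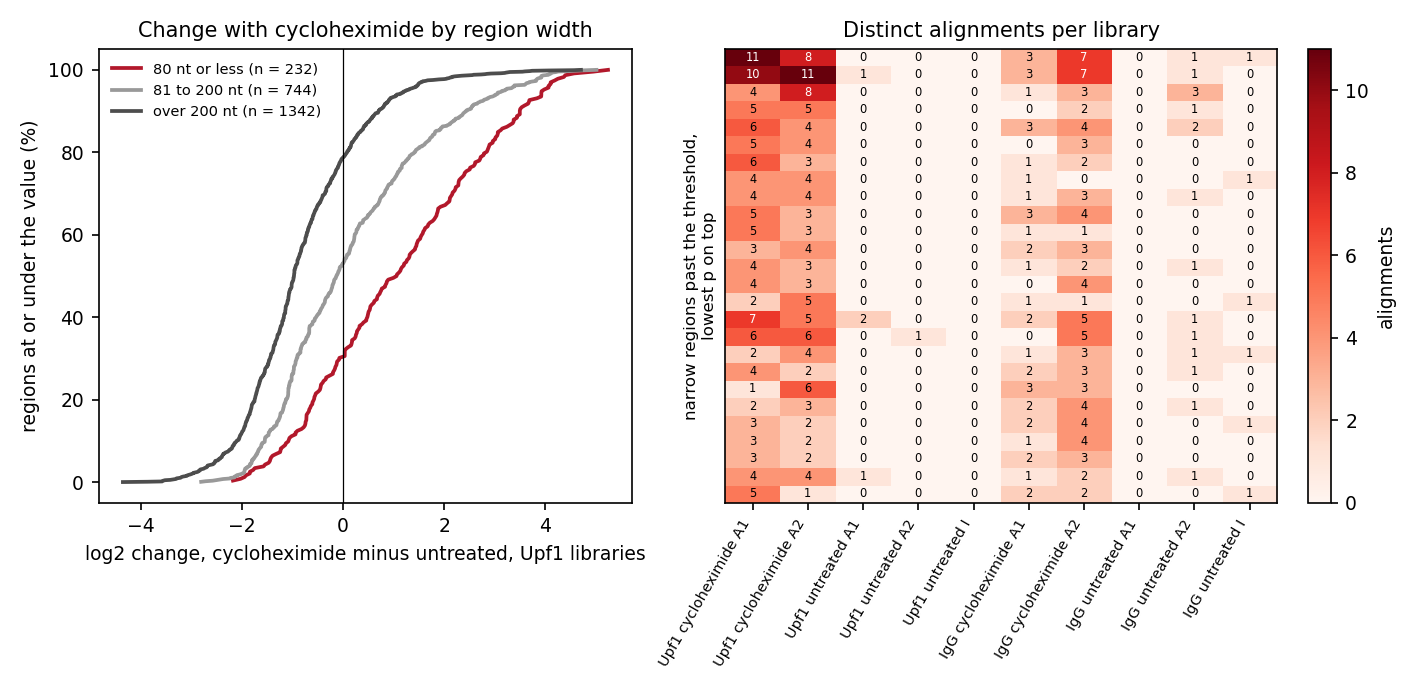
Left, share of regions (percent) at or under each log2 change between cycloheximide and untreated Upf1 libraries, by region width; the medians are 1.06, -0.13 and -0.97. Right, distinct alignments per library in the 26 narrow regions that passed the threshold, lowest p on top; the columns of both cycloheximide groups hold most alignments and those of the untreated Upf1 libraries hold 5 in all.

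The 2 neighbouring regions on chromosome 17 had the lowest p. chr17:45707647-45707707 on the minus strand had 11 and 8 alignments in Upf1 cycloheximide A1 and A2, against none in Upf1 untreated A1, A2 and I. That is at least 20.6-fold higher per unspliced alignment against 3 alignments over the untreated group, with a log2 change of 5.24 ± 1.16 (SE; limma-voom adjusted p = 0.0158). Its IgG alignments were 3 and 7 after cycloheximide, against 0, 1 and 1 untreated, so both precipitates had more with cycloheximide. Its 31 alignments began at 8 bases, with 7 each on bases 23 and 24 from the region's 5′ boundary, and 83.9% had a molecule shared with another library. chr17:45708489-45708559 on the same strand had 10 and 11 against 1, 0 and 0 in Upf1 libraries, 68.5-fold higher (95% exact interval 11.01 to 2831), with a log2 change of 4.95 ± 1.18 (SE; limma-voom adjusted p = 0.0164). There, 14 of 33 alignments began on 1 base, seen in 5 libraries and in 3 of the 4 groups. Neither region reached the minimum in untreated libraries alone, so its fold and p are given as a description.

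The next 8 by p all lacked alignments in untreated Upf1 libraries. chr3:102853549-102853625 on the plus strand had 4 and 8 alignments in Upf1 cycloheximide A1 and A2, at least 13.0-fold higher (limma-voom adjusted p = 0.0230). chrX:132424054-132424108 on the plus strand had 5 and 5, and chr1:164640773-164640832 on the minus strand had 6 and 4, each at least 10.9-fold higher. In the chromosome 1 region 73.7% of the 19 alignments began on 1 base. chr10:62303032-62303081 and chrX:71203608-71203663 on the minus strand had 5 and 4, and 6 and 3, each at least 9.78-fold higher. chr1:155312806-155312857 on the minus strand, chr5:77710101-77710144 on the plus strand and chr11:60603683-60603739 on the minus strand had 4 and 4, 4 and 4, and 5 and 3, each at least 8.69-fold higher. No untreated library of either antibody had an alignment at chr10:62303032-62303081, chrX:71203608-71203663 or chr11:60603683-60603739. The others of these 8 had 1 to 3 untreated alignments, all in IgG libraries. All 8 met the minimum only through the libraries in which they were high, so their folds and p-values are given as a description. Over all 26 regions the log2 changes ran from 3.44 to 5.24 and the limma-voom adjusted p-values from 0.0158 to 0.0477.

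The 26 regions rested on few alignments. They held 118 and 109 alignments in Upf1 cycloheximide A1 and A2, against 4, 1 and 0 in Upf1 untreated A1, A2 and I. In IgG they held 39 and 84 in cycloheximide A1 and A2, against 0, 16 and 6 in untreated A1, A2 and I. In 22 of them no untreated Upf1 library had an alignment, and in 9 no untreated library of either antibody had any. Those 9 met the minimum only through the libraries in which they were high, and the 26 as a set mostly so. The change of these regions in IgG is therefore given only as the alignments above. A median of 71.4% of their alignments were molecules shared between libraries, against 30.8% in the 206 regions not called. The libraries that fill the 26 also had high shares in wider regions that met the minimum. These were 48.3% and 60.9% in Upf1 cycloheximide A1 and A2, 88.8% and 91.5% in IgG cycloheximide A1 and A2 and 92.4% in IgG untreated A2. Upf1 untreated A2 had 48.9%, and the other untreated libraries had 1.86% to 10.7%. In IgG cycloheximide A1 and A2, 64.1% and 75.5% of the molecules in the 26 regions also occurred in an Upf1 cycloheximide library, and in IgG untreated A2 88.9% did. The part of shared molecules in this count was not tested by itself; without such molecules 111 narrow regions met the minimum and 2 were higher (1.8%), beside 10 of all 1774 regions (0.564%).

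The count of 26 moved with the libraries that entered, in both directions. Leaving out the Upf1 untreated libraries A1, A2 or I gave 2, 35 or 15, and leaving out the IgG untreated libraries A1 or I gave 47 or 31. Without either Upf1 cycloheximide library no region of any width passed limma-voom, with 25 and 22 narrow regions higher at an unadjusted p under 0.05. In the 7 libraries with the 38 nt limit, 102 narrow regions met the minimum and no region of any width passed limma-voom; at an unadjusted p under 0.05, 27 narrow regions were higher (26.5%), beside 90 of all 478 regions (18.8%). In these 3 fits 1 side of the comparison is a lone library, assumed to vary like the other groups, so their counts of 0 do not show that the change is absent. The median log2 change in the 38 nt libraries was 1.19 in narrow regions and 0.30 in all. The regions were drawn around pooled alignments, of which the 34 nt untreated Upf1 libraries gave most; the part of this in the difference between width classes was not tested. Without Upf1 untreated A1 the medians were 1.50 in narrow and -0.16 in all regions, and without Upf1 untreated I they were 1.57 and -0.24.

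Spliced alignments were not used to build the regions. A spliced alignment ended in 5 of the 26 (19.2%) and in 11 of the other 206 narrow regions (5.34%). Over all narrow regions it was 16 (6.90%), against 5.65% of regions of 81 to 200 nt and 2.53% of wider regions. Spliced alignments were themselves 5.05% and 4.30% of the Upf1 cycloheximide libraries A1 and A2, which fill the called regions, against 1.16%, 1.17% and 0.900% of Upf1 untreated A1, A2 and I. The difference between called and other regions was not tested. The median alignment length was 30.75 nt in the 26 regions and 34 nt in the others. The longest alignments of the libraries that fill each set differ, so this is given as a description.

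In the IgG libraries no narrow region passed the limma-voom threshold with cycloheximide, beside 0% higher and 0.0424% lower among all regions. At an unadjusted p under 0.05, 40 were higher and 4 lower, beside 4.96% and 1.65% of all regions, and the limma trend fit called none. The 3 with the lowest p for a higher level were chr17:34049575-34049629 and chr16:91674132-91674203 on the plus strand and chr11:60603683-60603739, which is also among the 10 above. The first had 4 and 4 alignments in IgG cycloheximide A1 and A2 against none in the 3 untreated IgG libraries (log2 change 3.42 ± 1.11, SE; limma-voom adjusted p = 0.4545). It had 4 and 5 in Upf1 cycloheximide libraries against 0, 1 and 0 untreated. No untreated library of either antibody had an alignment at chr16:91674132-91674203 or chr11:60603683-60603739. All 3 regions met the minimum only through cycloheximide libraries, so their rank and values are given as a description. The lowest values came from regions filled by IgG untreated A1 and I. chr6:3150971-3151015 on the plus strand had none in IgG cycloheximide libraries against 14, 1 and 7 in IgG untreated A1, A2 and I. chr8:126123818-126123879 on the minus strand had none against 14, 0 and 8, and chr10:40271053-40271105 on the plus strand none against 10, 0 and 3.

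The change with cycloheximide was not shown to differ between Upf1 and IgG. In the interaction contrast no region passed the limma-voom threshold (0% each way), and the limma trend fit called none. At an unadjusted p under 0.05, 16 narrow regions were higher in Upf1 and none lower, beside 1.4% and 1.48% of all regions. The median difference of the log2 changes was 0.76 in narrow regions and -0.45 in all. chr1:157891384-157891450 on the plus strand had the lowest p, with 4 and 2 against 0, 1 and 0 in Upf1 libraries and 0 and 1 against 2, 0 and 4 in IgG libraries (difference 3.67 ± 1.44 on the log2 scale, SE; limma-voom adjusted p = 0.9854). For chr17:45707647-45707707 the difference was 2.85 ± 1.64 (SE; limma-voom adjusted p = 0.9854). In the other direction chr5:143734489-143734557 and chr17:39980347-39980412 on the plus strand had 0 and 0 against 5, 2 and 2, and 0 and 0 against 8, 2 and 0, in Upf1 libraries.

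Regions with alignments mostly in untreated Upf1 libraries existed but did not pass. chr2:26746958-26747023 on the minus strand had none in Upf1 cycloheximide libraries against 6, 3 and 3 in Upf1 untreated A1, A2 and I, at least 1.23-fold lower, with a log2 change of -2.17 ± 0.99 (SE; limma-voom adjusted p = 0.2527). chr16:13647861-13647903 on the minus strand had none against 4, 4 and 2. chr17:39984498-39984565 on the plus strand had none against 4, 1 and 8, and its IgG libraries had 0 and 1 with cycloheximide against 2, 0 and 9 untreated. Its 25 alignments began at 18 different bases, and 96.0% of them reached the read limit.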

How the data were processed

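CLIP alignments of 10 libraries were used, 5 with anti-Upf1 and 5 with IgG. The deposited files are BED lists of alignments on mm9, with 2 letters in each name, read here as the random 5′ adapter nucleotides though no header says so, and a score of 255 in every line, per the file contents; the score was not used. TopHat 1.4.0, Cufflinks 1.3.0 and Bowtie 0.12.6 are named in the submitters' processing notes, without their roles. Per the labels' protocols the 2 random nucleotides served to filter copies made by PCR. Positions were read from the deposited files as they stand.

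Alignments of at most 60 nt were counted once per position, strand and library, merged at gaps up to 50 nt, and regions with at least 10 in at least 3 libraries were tested. limma 3.58.1 (voom) in R 4.3.3, with TMM scaling (trims of 30% and 5%, the deepest library as base), fitted all 2357 regions and 10 libraries with groups, or antibody and treatment, as terms; p-values are two-sided, adjusted by Benjamini-Hochberg over all regions. A fold against a group without alignments uses 3 alignments over the group. The fit was tested on simulated data. Members and lists were chosen with earlier results of these data known. Named regions were, per contrast, up to 10 called regions of lowest p in each direction or else 3, the 10 with most alignments, the 5 highest and 5 lowest in 5′ end share among those with at least 15 alignments, and groups within 1000 nt. Samples were grouped by antibody and treatment. Alternatives covered scaling, test, counting, filter, gap, width, read limit, replicate block and leaving out each library. No gene names or sequences are given, since no mm9 genome or annotation was at hand. Intervals cover counting error only, since reads are not all independent molecules.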

Additional observations from a re-analysis of the deposited data

Results flagged for a closer look

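Within the 5 libraries of each antibody, 1 library stood far from the other 4 (by Dixon's ratio) in 9 of the 36 values examined. These were values of the 10 narrow regions with the most alignments and library-wide measures. Chance alone gives about 1 such flag in 20 groups of normally spread values, a rate that need not hold for counts this small. In 8 of the 9 the library was IgG untreated A1, which has 10212 unspliced alignments. Its rate per 100000 unspliced alignments was 137 at chr8:126123818-126123879, 78.3 at chrX:84483693-84483762, 58.8 at chr2:140202340-140202391, 39.2 at chr5:67442481-67442536 and 29.4 at chr16:78777938-78777985. It was 19.6 at each of chrX:40607296-40607350, chr4:82975201-82975277 and chr4:119198095-119198145, where it rests on 2 alignments. The remaining value was 19.8 in Upf1 untreated A2 at chrX:84483693-84483762, from 4 alignments.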

How the results depend on the processing

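The count of narrow regions higher with cycloheximide in Upf1 libraries, 26 in the reported analysis, moved with many settings. It was 0 when every line was counted, 0 with distinct molecules, 2 without molecules found in more than 1 library, 3 with at least 20 alignments, 0 with no filter, 7 at a merge gap of 20 nt, 16 at a width limit of 60 nt and 0 in libraries with 38 nt reads. It was 42 with limma trend and 41 with the replicate block, and all 26 were among both. Leaving out a library gave 0 (without either Upf1 cycloheximide library) to 47 (without IgG untreated A1), with 2, 35 and 15 without Upf1 untreated A1, A2 and I, 31 without IgG untreated I, 17 and 13 without IgG cycloheximide A1 and A2. Added after seeing the data were a fit without the 3 IgG libraries that share most molecules (2) and one of Upf1 libraries alone (5). The cause was not tested. The number lower stayed 0 in all of these. Between Upf1 and IgG, 1 region was lower with library totals, and leaving out a library gave 0 to 2 higher. In IgG, 3 regions were higher with cycloheximide when every line was counted. The number of narrow regions, 232, became 991 for every line, 567 for distinct molecules, 111 without shared molecules, 31 at 20 alignments, 191346 with no filter, 148 at 60 nt, 102 in 38 nt libraries, and 153 to 214 when a library was left out. The median 5′ end share was 60% for every line and 100% with no filter, against 36.4%. Same-lettered Upf1 and IgG libraries had correlations of deviations of -0.17, 0.42 and 0.34 for untreated A1, A2 and I. Unlike letters had -0.51 to 0.28. A2 and I thus deviated with their own letter and A1 did not. Pairing by letter was not settled by this, and the letters were not taken as pairs. With 12 alignments in a typical region, depth limits above all the detection of falls.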
